A study of Rattus norvegicus with 6 samples.

Results

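miR-126a is the rat miR-126, a microRNA (miRNA) of vascular endothelium, and both of its arms were measured in whole testis by small RNA sequencing. Of the 721 entries of the miRNA table, 2 were chosen by a rule on names, rno-miR-126a-3p and rno-miR-126a-5p. The table had 3 libraries from Sprague-Dawley rats with streptozotocin (STZ)-induced diabetes and 3 from normal rats. The diabetic (DM) rats had been fed a high-fat diet, received a single injection of STZ, which kills pancreatic beta cells, and were profiled at 8 weeks. The normal rats received citrate buffer only. The rats were adult, and neither their exact ages nor the diet of the normal group are given in the sources used here. The pair was proposed with levels from this diabetic against normal contrast already known. Its levels, its differences between groups and its arm ratio are therefore given as a description, without a test.

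Most miRNA precursors are hairpins from which both strands of the stem can be cut as mature miRNAs, the 5p arm and the 3p arm. miR-126 lies in an intron of Egfl7, which encodes a protein secreted by endothelial cells, and endothelial cells are its main known source. The 3p arm is known to repress Spred1 and Pik3r2, inhibitors of the signal from vascular endothelial growth factor, and the 5p arm to repress Dlk1 in endothelial cells. In the testis the vessels run between the seminiferous tubules, beside the Leydig cells.

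The mature sequences are shown because the arms of this hairpin have different seeds, and so would recognise different targets. They were taken from RefSeq (rat assembly GRCr8) and are written 5′ to 3′, with the seed, bases 2 to 8, in capitals. The third is miR-126b, which is cut from the opposite strand of the same locus and has no entry in the miRNA table.
rno-miR-126a-5p: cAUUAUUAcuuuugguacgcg
rno-miR-126a-3p: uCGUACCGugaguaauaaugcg
rno-miR-126b: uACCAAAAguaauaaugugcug

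In GRCr8 the 5p arm (21 bases) lies at chr3:29813182-29813202 and the 3p arm (22 bases) at chr3:29813219-29813240, both on the plus strand. Both lie inside the span of Egfl7, which is on the same strand. miR-126b lies on the minus strand at chr3:29813177-29813198 and faces 17 bases of the 5p arm. RefSeq gives the arms named miR-126a the gene symbol Mir126b and lists rno-mir-126a among its synonyms, so the arms were followed here by their mature names. A mature sequence of the same name was found for 492 of the 539 known miRNAs in the table (91.3%). Among these, 0 others shared bases 2 to 8 with rno-miR-126a-3p and 0 with rno-miR-126a-5p.

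The 6 libraries held 305476 to 549446 reads over the listed miRNAs, so that 1 read was worth between 1.82 and 3.27 CPM, a count scaled to a total that is the same for every library. Pairs of libraries within a group differed by more than counting noise (chi-square of 6.47 to 20.0 for each degree of freedom), and each of the 6 libraries was counted as a separate sample. miR-34c-5p, a miRNA of meiotic and postmeiotic germ cells, was the most abundant entry, which fits the testis label. Over all 578 miRNAs tested with limma, 0 (0%) had an adjusted p under 0.05. This is given as the background of calls, and no verdict on either arm is read from it. At an unadjusted p under 0.05 there were 51 (8.82%), and the edgeR and DESeq2 tests on the recovered reads called 2 and 1 at an adjusted p under 0.05.

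The 3p arm was the abundant one and was higher in each diabetic library than in any normal library. rno-miR-126a-3p was at 10747, 10362 and 12524 CPM in diabetic replicates 1, 2 and 3, from 3283, 3855 and 6881 reads. In normal replicates 1, 2 and 3 it was at 8141, 9933 and 7338 CPM, from 3592, 4893 and 3890 reads. The groups did not overlap, but diabetic replicate 2 stood only 4.31% above normal replicate 2. The exact binomial 95% intervals of those libraries, 10039 to 10692 CPM and 9658 to 10214 CPM, did overlap. Such intervals cover counting error only.

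The group means of rno-miR-126a-3p were 11211 ± 1153 CPM (diabetic; SD, n = 3) and 8471 ± 1329 CPM (normal; SD, n = 3). The log2 difference, diabetic minus normal, was 0.41 ± 0.11 (SE), or 1.33-fold. This SE, like each SE below, is the moderated one of limma. It borrows variance from the other tested miRNAs, so it is not the spread of this arm's values alone. The difference of the means was larger than the SD of either group. Over all tested miRNAs, 86 of 578 (14.9%) had groups that did not overlap and 46 (7.96%) did so with the diabetic group higher, and the pair was picked with this contrast known, so nothing is read from the separation. In bulk tissue, more cells of a type and more RNA per cell cannot be told apart, and the data do not show in which cells the arm was present. With upper-quartile factors the groups of the 3p arm overlapped, the lowest diabetic library being at 10057 and the highest normal library at 10344 on that scale.

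The 5p arm was present at a much lower level, and its groups overlapped. rno-miR-126a-5p was at 1254, 1360 and 1260 CPM in the diabetic libraries, from 383, 506 and 692 reads. It was at 1065, 1153 and 1324 CPM in the normal libraries, from 470, 568 and 702 reads. The highest normal library, replicate 3, lay above diabetic replicates 1 and 3. The means were 1291 ± 59.7 CPM and 1181 ± 132 CPM (SD, n = 3 each), and the log2 difference was 0.13 ± 0.12 (SE). The difference of the means in CPM was smaller than the SD of the normal group and larger than that of the diabetic group. The log2 difference was 0.22 without normal replicate 3 and 0.06 without normal replicate 1.

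**Figure D1:**
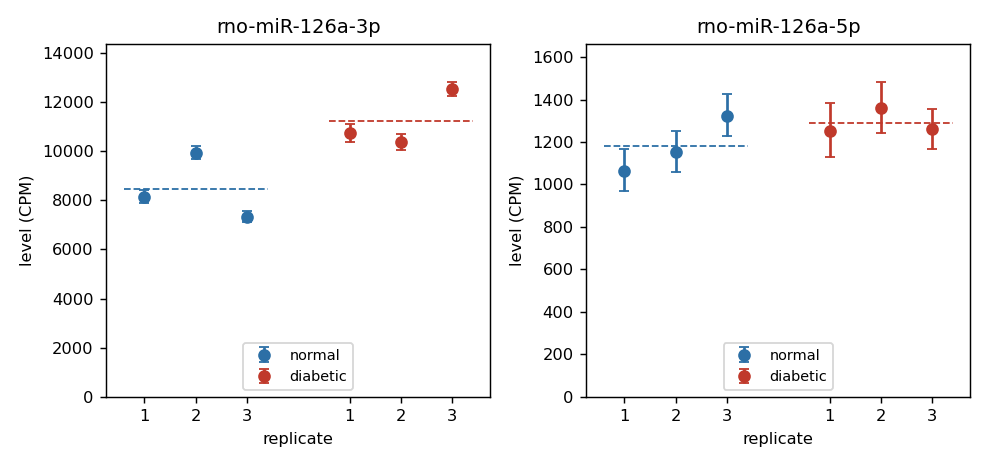
Level of each arm in CPM (y axis, from 0) in each normal (blue) and diabetic (red) replicate (x axis), with exact binomial 95% intervals as bars and the group mean as a dashed line. The 3p arm lies between 10362 and 12524 CPM in the diabetic libraries and between 7338 and 9933 CPM in the normal ones, and the 5p arm overlaps between groups.

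The spread between replicates can be set beside the error of counting. The coefficient of variation of rno-miR-126a-3p was 10.3% among diabetic and 15.7% among normal libraries, whereas counting alone gives 1.21% to 1.75% at its read numbers. That of rno-miR-126a-5p was 4.63% among diabetic and 11.2% among normal libraries, against 3.77% to 5.11% from counting. The spread was above counting error for the 3p arm in both groups and for the 5p arm in the normal group. It was of the size of counting error for the 5p arm in the diabetic group, on 3 libraries.

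In order of level, rno-miR-126a-3p was entry 22 of 721 by its mean over the 6 libraries, 9841 ± 1868 CPM (SD over 6 libraries). It ranked 16 to 22 within the diabetic and 23 to 26 within the normal libraries. Its neighbours were miR-743b-3p above it, from a testis-rich cluster on the X chromosome, at 10223 ± 623 CPM, and miR-27b-3p below it, also linked to angiogenesis, at 8803 ± 813 CPM. Both means lay within the SD of the 3p arm. rno-miR-126a-5p was entry 70, at 1236 ± 110 CPM, between miR-26b-5p at 1238 ± 167 CPM and miR-146a-5p at 1226 ± 144 CPM, differences again smaller than the spread.

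Among the abundant miRNAs, the 3p arm stood near the upper end of the differences. Of 83 miRNAs with a mean of at least 1000 CPM, a limit set after the values were seen, rno-miR-126a-3p had the second highest log2 difference. Only the predicted entry X_47314 was higher, at 1.32 ± 0.45 (SE), and its groups overlapped. The median absolute difference of these 83 was 0.13. Of the 257 tested entries that had 10 reads or more in each library it was 16 from the top, and of all 578, many of them scarce and widely scattered, 119 from the top. rno-miR-126a-5p was 23 from the top among the 83. Of these 83, 21 had groups that did not overlap, and 12 of those were higher in diabetes. Over all 578 tested miRNAs, 86 (14.9%) had groups that did not overlap, and 46 (7.96%) did so with the diabetic group higher. Since the pair was picked with this contrast known and the limit was set after the values were seen, nothing is read from these counts and ranks.

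**Figure D2:**
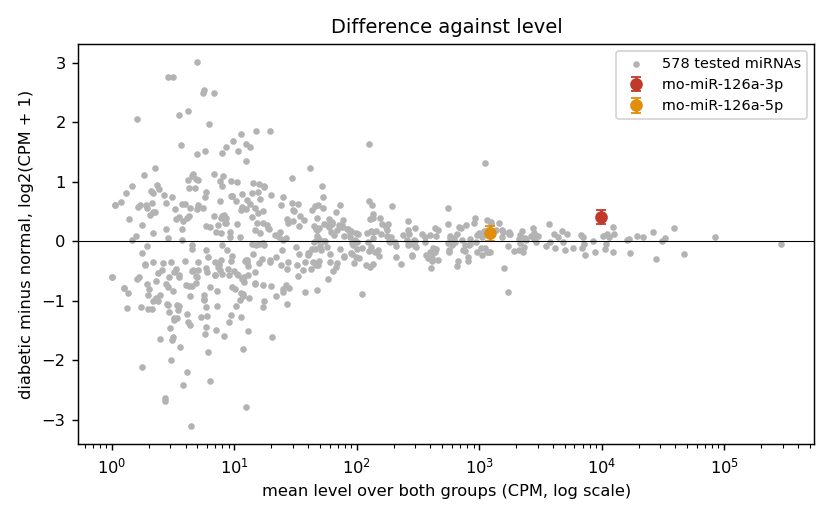
Log2 difference, diabetic minus normal on the log2(CPM + 1) scale (y axis), against mean level in CPM (x axis, log scale) for 578 tested miRNAs (grey), with both arms of miR-126a in colour and their standard errors as bars. Scarce miRNAs scatter widely, and the 3p arm lies at 0.41. The pair was picked with this contrast known, so nothing is read from its place among the other entries.

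The ratio of the arms within a library does not depend on how libraries are scaled to each other. The 5p arm made up 10.4%, 11.6% and 9.14% of miR-126a reads in diabetic replicates 1, 2 and 3. In normal replicates 1, 2 and 3 it made up 11.6%, 10.4% and 15.3%. Normal replicate 3 stood above the other 5 libraries, with an exact binomial 95% interval of 14.3% to 16.4%, while the remaining normal libraries lay within the range of the diabetic ones. There were 8.57, 7.62 and 9.94 reads of the 3p arm per read of the 5p arm in the diabetic libraries, and 7.64, 8.61 and 5.54 in the normal libraries.

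The diabetic libraries had a mean 5p share of 10.4% ± 1.23 and the normal ones of 12.4% ± 2.55 (SD, n = 3 each), a difference of -2.02 percentage points. As log2 of 5p over 3p reads, the means were -3.11 ± 0.19 and -2.84 ± 0.33 (SD, n = 3 each) and differed by -0.28, less than the SD of the normal group. Without normal replicate 3 the difference was -0.09 on the log2 scale and -0.59 percentage points, and without diabetic replicate 3 it was -0.18 on the log2 scale. The log2 levels of the arms had a Pearson correlation of 0.20 over the 6 libraries, which share the same scaling and conditions.

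**Figure D3:**
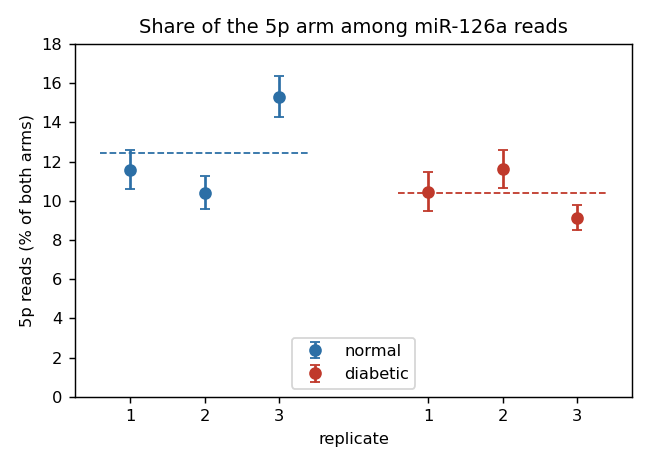
Reads of the 5p arm as a percentage of the reads of both arms (y axis, from 0) in each normal (blue) and diabetic (red) replicate (x axis), with exact binomial 95% intervals as bars and group means as dashed lines. Normal replicate 3 at 15.3% is the library that stands apart, and the other 5 lie between 9.14% and 11.6%.

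Other hairpins give a scale for this ratio. In 50 hairpins each arm had 10 reads or more in each library, and the 3p arm was the more abundant one in 27 of them. The more abundant arm took 88.6% of miR-126a reads on average, more than in 29 of the 50, whose median was 83.6%. The log2 ratio of miR-126a had a within-group SD of 0.27, close to the median of 0.28 over the hairpins. In 6 of the 50 (12%) the ratio did not overlap between groups, and miR-126a was not among them. The hairpins with the nearest 5p share were miR-743a, at 11.0% in diabetic and 9.75% in normal libraries, and miR-142, a miRNA of blood cells, at 11.8% and 13.2%.

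Summed over both arms, miR-126a was at 12001, 11722 and 13783 CPM in the diabetic libraries and at 9206, 11086 and 8662 CPM in the normal libraries. The sum follows the 3p arm, and its groups did not overlap either. The means were 12502 ± 1118 and 9652 ± 1272 CPM (SD, n = 3 each).

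The other miRNAs that are linked to endothelium and angiogenesis did not, as a list, share the direction of the 3p arm. The list holds the miR-17-92 cluster, the miR-23, miR-24 and miR-27 group, miR-221 and miR-222, miR-10, miR-100, miR-130a, miR-132, miR-210, miR-218a, miR-296, miR-322, miR-503 and others, and many of these are also made in cells other than endothelium. Of its 44 entries 40 were tested, 16 with a higher and 24 with a lower mean in diabetes. At an unadjusted p under 0.05 there were 2 higher and 1 lower, a share near the 8.82% of all miRNAs, and 0 at an adjusted p under 0.05 in limma. The groups did not overlap for 6 of the 40, against 14.9% of all tested miRNAs. The list's median log2 difference was -0.18, against 0.0046 for all tested miRNAs, and it was -0.03 without diabetic replicate 1 and -0.08 without normal replicate 2.

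miR-296-5p, known to be induced in endothelium by growth factors, was at 1048, 1043 and 1048 CPM in the diabetic and 694, 828 and 887 CPM in the normal libraries. Its log2 difference was 0.39 ± 0.13 (SE; limma adjusted p = 0.348). miR-221-3p, which represses the stem cell factor receptor Kit, was at 1342, 1521 and 1258 CPM against 1108, 1147 and 1087 CPM. Its log2 difference was 0.30 ± 0.12 (SE; limma adjusted p = 0.406). The groups of both did not overlap, with the diabetic libraries higher, and neither passed the adjusted threshold.

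miR-20a-5p, of the miR-17-92 cluster, was at 6855, 7306 and 6128 CPM in the diabetic and 7967, 7095 and 8788 CPM in the normal libraries. Its log2 difference was -0.23 ± 0.10 (SE; limma adjusted p = 0.492), and its groups overlapped. The most abundant entry of the list, miR-100-5p, averaged 16261 ± 1820 CPM (diabetic; SD, n = 3) and 15931 ± 1878 CPM (normal; SD, n = 3). It differed by 0.03 ± 0.11 in log2 (SE; limma adjusted p = 0.889).

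Markers of the other cells in the tissue were read beside the arms, since vessels hold blood and are wrapped in contractile cells. All 9 entries of the blood cell list (miR-451, miR-144, miR-486, miR-223, miR-142 and miR-150) were tested and 0 of them were at 0 in all libraries. Their summed level was 1134 to 1434 CPM in the diabetic and 1272 to 1500 CPM in the normal libraries. Of these 9, 1 was lower at an unadjusted p under 0.05, miR-142-3p, which averaged 339 ± 31.2 CPM (diabetic; SD, n = 3) and 465 ± 64.8 CPM (normal; SD, n = 3), with a limma adjusted p of 0.348. This share is near the 8.82% of all tested miRNAs, and the count was 0 without the trend, without diabetic replicate 2 and without normal replicate 2. The red cell miRNA miR-451-5p differed by 0.01 ± 0.24 in log2 (SE; limma adjusted p = 0.984). The list's median log2 difference was -0.45, and it was -0.11 over entries that had 10 reads or more in each library and between -0.77 and -0.18 when one library was left out.

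The contractile list, labelled as smooth muscle and peritubular, holds miR-143, miR-145, miR-133a, miR-133b, miR-1 and miR-1b. Whether each entry marks those cells was not tested. The 9 entries had a median log2 difference of -0.01 and 0 at an unadjusted p under 0.05. Their summed level was 86838 to 97103 CPM in the diabetic and 80137 to 98510 CPM in the normal libraries, nearly all of it miR-143-3p. Of the 7 germ cell entries tested, from miR-34b, miR-34c and miR-449, 0 had an unadjusted p under 0.05 and the median was -0.06. For 2 of these 7 the groups did not overlap, both with the diabetic libraries lower, against 14.9% of all tested miRNAs in either direction. These were miR-34b-3p and miR-449c-3p, and the latter had only 0 to 3 reads in a library. A list of 7 entries is too short for this count to be read as a result about germ cells. With 8.82% of all tested miRNAs at an unadjusted p under 0.05, lists of 9 and 7 entries hold too few for a count of 0 to stand apart. miR-202-5p, of Sertoli cells and other gonadal cells, averaged 4107 ± 188 CPM (diabetic; SD, n = 3) and 3340 ± 236 CPM (normal; SD, n = 3). It differed by 0.30 ± 0.10 in log2 (SE; limma adjusted p = 0.348). The other arm of that hairpin, miR-202-3p, had the lower mean in diabetes, at 130.5 ± 12.7 CPM (diabetic; SD, n = 3) and 150.0 ± 28.9 CPM (normal; SD, n = 3), so the 2 entries of this list went in opposite directions and neither passed the adjusted threshold. The part of cell composition in the level of miR-126a was not tested.

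**Figure D4:**
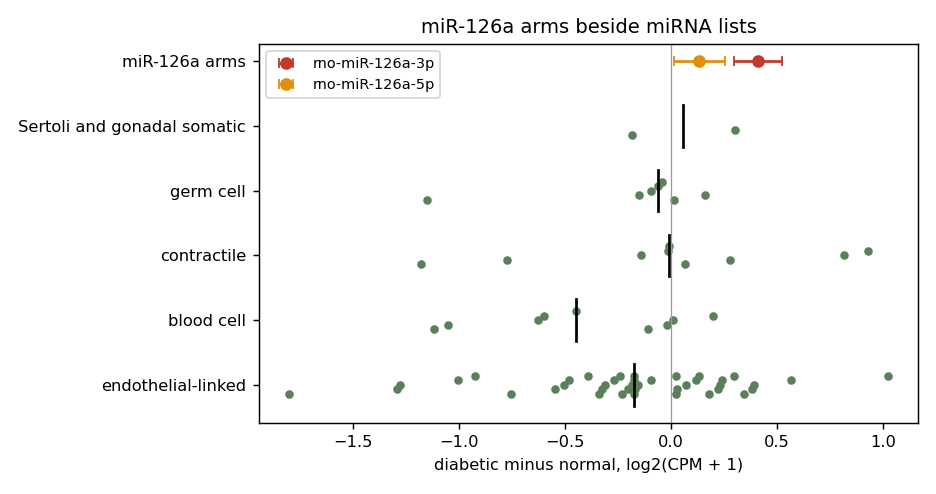
Log2 difference, diabetic minus normal on the log2(CPM + 1) scale (x axis), of each tested entry of 5 miRNA lists (green points, spread vertically only for legibility, with the list median as a black bar) and of both miR-126a arms (top row, bars are standard errors). The endothelial-linked entries lie on both sides of 0 with a median of -0.18, while the 3p arm lies at 0.41.

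The miRNAs whose profile over the 6 libraries was most like each arm were different ones for the 3p and the 5p arm. They were taken from 227 known miRNAs that had 10 reads or more in each library, by Pearson correlation of log2(CPM + 1), as a description over 6 libraries that share their scaling. For rno-miR-126a-3p they were miR-363-3p (r = 0.92), miR-181a-5p (r = 0.91), miR-741-3p, miR-340-3p and miR-181a-1-3p (r = 0.90 each). miR-363-3p, of the miR-106a-363 cluster, was at 180, 148 and 198 CPM in the diabetic and 141, 142 and 115 CPM in the normal libraries, with diabetic replicate 3 highest and normal replicate 3 lowest as in the 3p arm.

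For rno-miR-126a-5p they were miR-92a-3p (r = 0.98), miR-425-5p (r = 0.92), let-7d-3p (r = 0.92), miR-296-5p (r = 0.82) and miR-30a-5p (r = 0.81). miR-92a-3p, the miR-17-92 member best known as an inhibitor of angiogenesis, was at 174, 212 and 175 CPM in the diabetic and 129, 142 and 211 CPM in the normal libraries. It shared with the 5p arm a high diabetic replicate 2 and a high normal replicate 3. miR-92a-3p and miR-296-5p are also on the endothelial list.

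The direction of both arms held under each scaling and each left-out library that was tried. All settings use the same libraries, and the pair was picked with this contrast known, so this is a description. The 3p arm differed by 0.30 to 0.42 on the log2 scale over 9 other settings and by 0.31 to 0.53 when one library was left out. The 5p arm differed by 0.03 to 0.16 and by 0.06 to 0.22. Upper-quartile factors gave the lowest value for both arms, and they moved the median of all tested miRNAs to -0.10. Relative to that median the 3p arm stood at 0.40 with those factors. A factor for a whole library shifts the arm and the median nearly alike, so this value could hardly change with the scaling. Nothing is read from it about the size of the 3p difference or the choice of scaling.

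**Figure D5:**
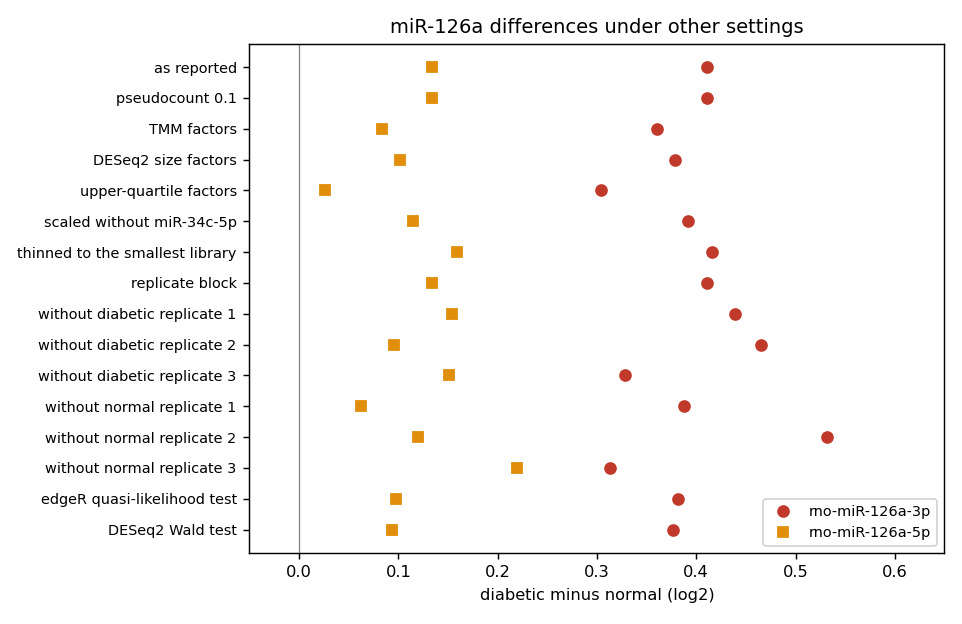
Log2 difference, diabetic minus normal (x axis), of the 3p arm (circles) and the 5p arm (squares) as reported and under each other setting or left-out library (rows). Every circle lies between 0.30 and 0.53, and every square lies nearer to 0, between 0.03 and 0.22.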

How the data were processed

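Small RNA of testes from diabetic and normal rats was sequenced single-end, in 3 libraries for each group. Per the study's methods, the authors removed primers and adaptors, counted the small RNA species, assigned known miRNAs to miRBase families and calculated CPM. The deposited values are CPM over the listed miRNAs, rounded to 1 decimal and headed TPM. The submitters' processing notes name Bowtie 0.12.2, HISAT2 2.0, StringTie 1.3.0 and mm8, a mouse build, without their roles. The miRBase release and the treatment of reads that match several miRNAs are not given in the sources used here. The extraction text of the labels describes a poly(A) library, whereas the design and the methods describe miRNA sequencing.

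Whole reads were recovered by searching for the lowest total at which all values equal whole reads after rounding (100% of values in each library). limma 3.58.1 (R 4.3.3; lmFit, eBayes with trend) was fitted to log2(CPM + 1) of all 6 libraries without covariates, for the 578 of 721 entries that reached 1 CPM in 3 libraries or more, with Benjamini-Hochberg adjustment. Standard errors come from this fit and use its moderated variances, which draw on the trend over all tested miRNAs. Intervals are exact binomial (scipy 1.17.1). Alternatives were another pseudocount (0.1), filters, scalings, thinning, no trend, a replicate block, edgeR 4.0.16, DESeq2 1.42.0 and leaving out each library. The limma p-values weigh a difference between groups against the variation between these libraries, with moderated variances. Labels call the libraries replicates without stating the number of rats, so whether that is variation between rats is not known.

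The members, lists and tests were chosen with earlier results of these data known. Named miRNAs were both arms, list members at an unadjusted p under 0.05, the most abundant list entries, neighbours in level, the 5 most alike miRNAs per arm and the 2 hairpins nearest in 5p share. X_47314 was named after its value was seen.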

Additional observations from a re-analysis of the deposited data

How the results depend on the processing

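With the replicate block, the log2 differences stayed 0.41 for the 3p arm, 0.13 for the 5p arm and -0.28 for the arm ratio, as they must in a balanced design. Same-numbered libraries share only a number, the correlations of their deviations over 227 miRNAs being 0.07, -0.09 and -0.02. The arm values moved by less than the within-group SD of the log2 values, pooled over both groups, in every setting tried, although TMM and upper-quartile factors took the 5p difference to 0.08 and 0.03. The 0 miRNAs with an adjusted p under 0.05 in limma became 1 without a filter, with a minimum of 10 reads per library, with TMM or upper-quartile factors, with the replicate block and with DESeq2, became 2 with edgeR and 8 without the trend, and ranged from 0 to 2 when one library was left out. The highest of these, 2, came without normal replicate 2. The 51 at an unadjusted p under 0.05 fell to 25 with a minimum of 10 reads per library, where fewer miRNAs were tested. The 3 endothelial list members at an unadjusted p under 0.05 became 1 without the trend, 6 with TMM factors, DESeq2 size factors or scaling without miR-34c-5p, and 5 with upper-quartile factors, edgeR or DESeq2. Over all 578 tested miRNAs, the 51 became 41 without the trend and 60, 60 and 59 with those 3 scalings. They became 57 with upper-quartile factors, 55 with edgeR and 39 with DESeq2. The directions of the list members called in these settings are not given here. The 1 blood cell member became 0 without the trend and ranged from 0 to 2 when one library was left out, with 2 without diabetic replicate 1 and 0 without diabetic replicate 2 or normal replicate 2. Over all tested miRNAs the count ranged from 38 to 51 when one library was left out. Of 18 alternatives each, miR-20a-5p, miR-221-3p, miR-296-5p, miR-142-3p and miR-202-5p had an unadjusted p above 0.05 in 5, 4, 3, 3 and 2, and their directions did not turn in any. They were named for an unadjusted p under 0.05 in the limma fit of the same libraries, so a turn was unlikely from the start. Nothing is read from the kept directions. The causes of the changes between settings were not tested. Depth limits the 5p arm, with 383 to 702 reads, more than the 3p arm, with 3283 to 6881.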
